A study of Mus musculus with 20 samples.

Results

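Rosiglitazone is a thiazolidinedione, a drug class that binds and activates the nuclear receptor PPARγ. The comparison described here set aortas of mice that ate rosiglitazone at 3 mg/kg/day for 14 days against aortas of mice on standard chow, 3 arrays against 3, out of 20 arrays in the series. Members were chosen by the array titles. The mice of both groups were adults of the C57BL/6J strain, whose titles and descriptions give no genetic change, and the drug was mixed into the food. Each array held total RNA pooled from 8 aortas, so a replicate was a pool and not a mouse, and the spread between pools is the only error available. The labels do not say how long the controls had been on their chow, and they give no age in weeks. The same chow arrays also served the groups given 3 mg/kg/day for 2 days (3 arrays) and 10 mg/kg/day for 2 days (3 arrays) or 14 days (2 arrays). A second experiment compared mice carrying a targeted P465L mutation of PPARγ, described by the submitters as dominant negative, with their untreated wild-type littermates, 3 arrays each.

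PPARγ works as a partner of the retinoid X receptors. When a fatty acid or a drug occupies its pocket, the pair exchanges corepressors for coactivators on DNA elements built from AGGTCA half-sites, and genes of fatty acid uptake, binding, storage and oxidation are transcribed more. The receptor is most abundant in fat cells and is also present in the endothelium and smooth muscle of arteries. Mouse aortas are wrapped in perivascular fat, which around the thoracic aorta has the character of brown fat, and RNA of a whole aorta can include RNA of that fat.

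Values are signals of the Affymetrix Mouse Genome 430 2.0 array, an arbitrary linear unit, and log2 values are of the signal plus 72. Differences are treated minus chow on that log2 scale, which understates the change of dim genes. Each of the 6 arrays had a mean Pearson's r of 0.965 to 0.975 with the other arrays of the series, taken over genes, which do not count as replicates. Treated array B stood apart from the other 5 in median signal, 450.7 against 347.9 to 375, and in the 3' to 5' signal ratio of Actb, a measure of RNA length, 1.35 against 1.18 to 1.21. Both values were the highest of all 20 arrays. The same ratio of Gapdh did not set treated array B apart, at 0.934 against 0.895 to 0.96 on the other 5. Many of the lipid genes below were highest on this array, so some results are also given without it. Without it, differences were 0.77 for Fabp4, 0.7 for Cd36, 0.57 for Lpl, 0.82 for Angptl4 and 0.94 for Gpihbp1. They were 0.85 for Pck1, 0.72 for Plin5, 0.56 for Etfb, 0.85 for Cox8b, 0.75 for Cox7a1, 0.72 for Cidea and 0.5 for Adipoq, each smaller than with all arrays. The part of the array's median signal and 3' to 5' ratio of Actb in the results was not tested. The number of arrays limits the precision: the median standard error of a difference was 0.15. Over the PPAR target genes below it ranged from 0.08 for Vldlr to 0.46 for Acaa1b. Acaa1b differed by 1.71, with an adjusted p of 0.333 by limma. The recovery given next is over genes of all kinds, and recovery of the PPAR target genes by themselves was not tested. On simulated data for this comparison, with 11076 genes of which 200 were changed, the same test recovered 21.5% of changes of 0.5, 80.5% of changes of 1 and 100% of changes of 2 on the log2 scale. It also called 5, 6 and 12 unchanged genes, respectively. The simulated spread was drawn separately for each gene, whereas the mean of the PPAR target list moved between real pools of a group (values below). How many real changes the test missed cannot be read from these shares.

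No single gene passed the test at this dose and time. Of 11076 genes, limma with Benjamini-Hochberg adjustment called 0 (0%) at an adjusted p under 0.05, and the smallest adjusted p was 0.189. At an unadjusted p under 0.05 there were 916 genes, where 5% of the genes tested is 554. Of these, 397 stood higher after rosiglitazone (3.58% of the genes tested) and 519 lower (4.69%). Without treated array B the count was 461, with 156 higher, and 0 genes were called. Without treated array C it was 1133, and 5 genes were called: Pmf1, Slc43a3, Nkain1, Cchcr1 and Smr2. In 677 genes (6.11%) all 3 treated arrays lay above all 3 chow arrays, and in 830 (7.49%) all lay below. When every array was set to the same median, which moved the median difference of all genes from -0.01 to 0.02, 544 of 923 genes at an unadjusted p under 0.05 stood higher. The genes below are therefore described by their values and by the order of their arrays, with the adjusted p of the fit over all genes beside them.

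Upstream windows of 5 genes are shown because the data bear on them: Cmbl and Btnl9, among the higher genes of smallest p, Acaa1b and Cd36, PPAR target genes that stood higher, and Cyp2f2, the lower gene of smallest p. They are the 250 bases before an annotated start, 5' to 3' on the gene's strand, from RefSeq on GRCm38.p6. Acaa1b, Cd36 and Cyp2f2 were chosen after their values were seen. Capitals mark an AGGTCA half-site on either strand, read as TGACCT where it lies on the opposite strand.
Cmbl, 31568583 to 31568832 of chromosome 15, forward strand: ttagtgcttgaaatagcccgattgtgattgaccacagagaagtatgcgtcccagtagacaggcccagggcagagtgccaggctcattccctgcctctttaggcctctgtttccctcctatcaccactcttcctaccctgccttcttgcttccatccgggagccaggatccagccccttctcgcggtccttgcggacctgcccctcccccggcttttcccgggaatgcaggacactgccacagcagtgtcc
Btnl9, 49187090 to 49187339 of chromosome 11, reverse strand: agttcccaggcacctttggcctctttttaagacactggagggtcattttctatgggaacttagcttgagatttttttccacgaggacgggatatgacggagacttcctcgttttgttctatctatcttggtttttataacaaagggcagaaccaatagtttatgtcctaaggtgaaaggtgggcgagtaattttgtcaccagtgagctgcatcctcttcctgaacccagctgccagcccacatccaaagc
Acaa1b, 119157094 to 119157343 of chromosome 9, reverse strand: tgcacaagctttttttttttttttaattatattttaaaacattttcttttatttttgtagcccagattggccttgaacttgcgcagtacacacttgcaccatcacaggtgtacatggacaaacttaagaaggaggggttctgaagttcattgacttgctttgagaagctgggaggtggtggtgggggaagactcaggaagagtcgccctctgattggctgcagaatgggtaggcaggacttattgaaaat
Cd36, 17835897 to 17836146 of chromosome 5, reverse strand: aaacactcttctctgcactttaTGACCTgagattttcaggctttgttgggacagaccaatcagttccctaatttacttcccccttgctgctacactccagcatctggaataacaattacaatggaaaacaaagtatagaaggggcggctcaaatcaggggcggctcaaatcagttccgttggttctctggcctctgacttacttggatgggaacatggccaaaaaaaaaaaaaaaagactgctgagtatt
Cyp2f2, 27119705 to 27119954 of chromosome 7, forward strand: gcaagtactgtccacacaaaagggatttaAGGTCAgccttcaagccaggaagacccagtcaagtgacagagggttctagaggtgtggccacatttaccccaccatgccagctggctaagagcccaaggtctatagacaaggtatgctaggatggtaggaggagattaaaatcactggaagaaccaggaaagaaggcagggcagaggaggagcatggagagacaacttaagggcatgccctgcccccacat
The Cd36 window held 1 half-site, starting 228 bases before the start, and the Cyp2f2 window 1, starting 221 bases before it. No AGGTCA or TGACCT was in the windows of Cmbl, Btnl9 and Acaa1b, nor in those of Pmf1 and Fbxo36, the other 2 windows that the naming rule chose. Over all 32851 windows of 250 bases in the table, 14.0% held the half-site on either strand. Among the PPAR target genes tested, 29 of 34 had a window, and 9 of their 36 windows (25%) held it. Of the 15 higher genes of smallest p, 8 had a window, and 3 of their 9 windows (33.3%), of Map3k12 and Perm1, held it, as did 2 of 15 windows (13.3%) of the 15 lower genes. A pair of half-sites spaced by 1 base, searched as AGGNCANAGGNCA on both strands, was in 0.338% of all windows and in 0 of these 36. Matches of letters are a description of the sequence and no evidence of binding.

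Among the receptors and their partners, Pparg itself had overlapping groups. Its signal was 1526, 1339 and 726 in chow arrays A, B and C and 1006, 1626 and 1471 in treated arrays A, B and C, with both groups spread over the same range. The difference was 0.22 ± 0.39 (SE), with an adjusted p of 0.917 by limma and a 95% interval from -0.59 to 1.02. Ppara, the receptor that drives fatty acid oxidation, had 880, 1085 and 704 in chow and 1378, 2129 and 1662 after treatment. All 3 treated arrays were above the chow arrays, by 0.90 ± 0.33 (SE, adjusted p = 0.495), and its other 2 probe sets had 0.83 and 0.84. Ppard had -0.20 ± 0.23 and the partner Rxra 0.03 ± 0.15, both with overlapping arrays, and each took the opposite sign without treated array B (0.15 and -0.08). The coactivators of mitochondrial biogenesis Ppargc1a (361, 405 and 359 in chow, 547, 847 and 672 treated) and Ppargc1b (2313, 1992 and 1606 against 2332, 3587 and 2670) stood higher by 0.75 and 0.52. Nrip1, a corepressor of these programmes, was also above chow on all 3 arrays, by 0.24 (adjusted p = 0.664). Of the 14 receptors, partners and coregulators tested, 10 had a difference above 0, 3 of them at an unadjusted p under 0.05, and the median was 0.14. Of all genes tested, 46.9% were above 0 and 3.58% had that p on the higher side. The count of 3 was 0 without treated array B or without chow array C, 1 without chow array B, and 2 without chow array A or treated array C.

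Several PPAR target genes of fatty acid uptake and binding lay above chow, and the fatty acid transporter Slc27a1, of the same list, was at 0.00 with overlapping arrays. Fabp4, which carries fatty acids inside fat cells and microvascular endothelium, was among the brightest genes, at 75843, 78852 and 47529 in chow and 99318, 143288 and 126158 after treatment. The treated arrays were 1.85-fold above chow (difference 0.89 ± 0.21 SE, 95% interval 0.45 to 1.32, adjusted p = 0.268), and its 3 other probe sets had 1.05, 0.72 and 0.90. Cd36, the membrane transporter for long-chain fatty acids, read 6551, 6916 and 3775 in chow and 7916, 11997 and 10390 treated. Again no treated array fell among the controls, and the difference was 0.83 ± 0.32 (SE, adjusted p = 0.511), with 0.85 and 0.83 on its other probe sets. Fabp5, a carrier of epidermis, macrophages and endothelium, overlapped at 1 array (5787, 7711 and 5816 against 7519, 13256 and 12805, difference 0.76). Fabp3, the carrier of heart and oxidative muscle, stood higher by 0.91, and Aqp7, the glycerol channel of fat cells, by 0.87, both without overlap.

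The lipoprotein lipase system, which frees fatty acids from circulating triglyceride at the capillary wall, showed both its enzyme and its regulators above chow. Lpl, the enzyme, had signals of 29060, 32268 and 14276 in chow and 32770, 43258 and 37887 after treatment. Treated array A exceeded chow array B by little, and the difference was 0.67 ± 0.30 (SE, adjusted p = 0.58). Angptl4, a secreted inhibitor of the enzyme and a PPAR target, read 2475, 1520 and 1486 against 2835, 7284 and 3567, a 2.31-fold difference (1.21 ± 0.31 SE, adjusted p = 0.301), and 0.31 on its other probe set. Gpihbp1, the endothelial protein that carries the lipase to the capillary lumen, read 1245, 1054 and 804 against 1411, 3418 and 2900, a 2.28-fold difference (1.19 ± 0.37 SE, adjusted p = 0.428). For both, array A was close to the highest control and arrays B and C were well above it.

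**Figure D1:**
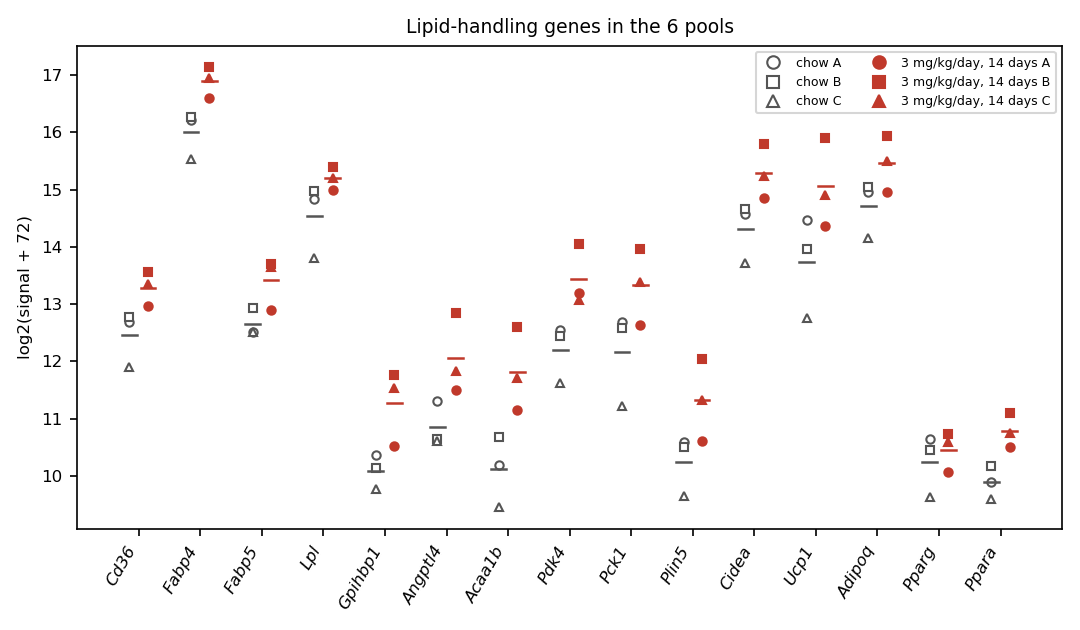
Log2 of the signal plus 72 for 15 lipid-handling genes (horizontal axis) in the 3 chow arrays (open symbols) and the 3 treated arrays (filled symbols), with array letters by shape and horizontal lines for group means. Treated arrays lie above all chow arrays for 10 of the 15, the exceptions being Fabp5, Pck1, Ucp1, Adipoq and Pparg, and treated array B is the highest array for every gene shown.

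Acaa1b, a peroxisomal thiolase that completes a round of fatty acid shortening, had the widest difference of the higher genes. Its signal was 1100, 1575 and 632 in chow and 2206, 6146 and 3286 in treated aortas. The groups did not overlap and differed 3.27-fold (1.71 ± 0.46 SE, 95% interval 0.76 to 2.66, adjusted p = 0.333), and without treated array B the difference was 1.32. Pdk4, a kinase that closes pyruvate dehydrogenase and so spares glucose when fat is burned, read 5941, 5531 and 3077 against 9364, 16878 and 8605. It stood 2.36-fold above chow (1.24 ± 0.38 SE, adjusted p = 0.428), or 0.93 without array B. Pck1, which makes the glycerol backbone for triglyceride in fat cells, read 6553, 6067 and 2338 against 6332, 15906 and 10641, so array A lay among the controls. Plin5, a lipid droplet coat protein of oxidative tissues, had a difference of 1.07 ± 0.44 (SE, adjusted p = 0.527), with array A just above the controls (1492 against at most 1471).

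Of the 42 PPAR target genes listed, 36 were measured with a single-symbol probe set and 34 were bright enough to test. The difference was above 0 in 28 of the 34, against 46.9% of all genes tested, and the median was 0.41 against -0.01. An unadjusted p under 0.05 was found for 15 on the higher side and 1 on the lower, beside 3.58% and 4.69% of all genes tested. Arrays did not overlap for 13 and 1, beside 6.11% and 7.49% of all genes tested. The lower one was Me1, malic enzyme, which supplies NADPH for fatty acid synthesis (7912, 8018 and 7128 against 5536, 5660 and 5852). The count of 15 was 5 without treated array B and 6 without chow array C, with medians of 0.29 and 0.27. It was 11, 13 and 14 without treated array C and chow arrays A and B, and 20 without treated array A. The mean of the list was 12.49, 12.45 and 11.97 in chow arrays A, B and C and 12.44, 13.13 and 12.81 in treated arrays A, B and C. Treated array A therefore lay at the level of chow arrays A and B, and chow array C was low by itself.

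Fatty acid beta oxidation was above 0 in 20 of its 22 tested members, against 46.9% of all genes tested. The median was 0.43, or 0.27 without treated array B. Etfb, a subunit of the flavoprotein that passes electrons from the acyl-CoA dehydrogenases, read 12858, 12665 and 9158 against 13511, 26408 and 21046 (0.77 ± 0.29 SE, adjusted p = 0.497). Its partner subunit Etfa had 0.54 and the oxidoreductase Etfdh 0.48, both without overlap. Hadh and Acad11 also had arrays above all controls, at 0.58 and 0.59, as did Acadm (0.47) and Hadhb (0.40). The carnitine transferase that admits fatty acids to the mitochondrion, Cpt1a, was at -0.17, and Acadsb, of branched-chain amino acid breakdown, at -0.27. Of the 22, 8 had an unadjusted p under 0.05 on the higher side and 1 on the lower, beside 3.58% and 4.69% of all genes tested. The 8 became 0 without treated array B, 1 without chow array C, 4 without treated array C and 7 without chow array A or B. In the peroxisome list 19 of 26 members were above 0 with a median of 0.14, and apart from Acaa1b only Ech1 (0.61) and the import receptor Pex7 (0.35) had an unadjusted p under 0.05. That count of 3, all higher, stood beside 3.58% of all genes tested. It was 5 without treated array A and 1 without chow array C, and the list median was 0.09 without chow array A.

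Respiratory chain genes lay slightly above chow with few exceptions. Of 65 subunits and carriers tested, 63 were above 0, with a median of 0.25. On the higher side 12 had an unadjusted p under 0.05, beside 3.58% of all genes tested. Arrays did not overlap in 15, all higher, beside 6.11% of all genes tested. Within this list Cycs, cytochrome c, was the widest at 0.60 ± 0.18 (SE, adjusted p = 0.428): 47049, 46637 and 39881 in chow and 58458, 79057 and 66494 treated, with 0.75, 0.49 and 0.57 on its other probe sets. Cox8b and Cox7a1, cytochrome oxidase subunits listed with the brown adipocyte markers, were wider, at 1.2 and 1.11. Complex I was represented by Ndufs4 (0.33), Ndufa7 (0.32) and Ndufa13 (0.32), complex IV by Cox6b1 (0.44), all without overlap, and Atp5g1 of the ATP synthase was at -0.04. The count of 12 was 1 without treated array B, 2 without chow array C, 5 without treated array C and 9 without chow array A, and 30 without treated array A, and the number of members above 0 lay between 60 and 64 in these fits. In the tricarboxylic acid cycle 22 of 23 members were above 0 with a median of 0.26 (0.17 without treated array B), led by the succinate-CoA ligase subunit Sucla2 (14415, 15906 and 11875 against 19453, 28670 and 21038, difference 0.70).

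Brown adipocyte markers had a median of 0.50, the highest of the 33 lists with all arrays, and 15 of 17 tested members were above 0. The median was 0.30 without treated array B and 0.37 without chow array C, where the skeletal muscle list, at 0.55, ranked above it. Ucp1, the uncoupling protein that makes heat and defines brown fat cells, was bright in every array: 22673, 15924 and 6878 in chow and 20928, 61238 and 30580 treated. Treated array A lay among the controls, and the difference was 1.32 ± 0.46 (SE, adjusted p = 0.493), or 0.90 without treated array B. Cox8b, the cytochrome oxidase subunit of heart and brown fat, read 21841, 18312 and 9626 against 22015, 58311 and 36448, and Cidea, a lipid droplet protein, 24479, 25741 and 13348 against 29476, 56954 and 38330. For both genes array A was near the highest control and arrays B and C were above it. Of the 17, 6 had an unadjusted p under 0.05 on the higher side, beside 3.58% of all genes tested. That count was 1 without treated array B and 1 without chow array C. In pooled tissue, a larger number of fat cells and more RNA of a gene per cell cannot be told apart.

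General fat cell markers were measured beside these lists. Adipoq, the hormone of fat cells, read 31584, 33892 and 18240 in chow and 31627, 62445 and 45895 treated (0.74 ± 0.31 SE, adjusted p = 0.546), with array A between the controls. An adipocyte score, the average log2 value of 21 fat cell markers that the PPAR target list does not hold, was 12.63, 12.61 and 12.10 in chow arrays A, B and C and 12.23, 12.97 and 12.78 in treated arrays A, B and C. The groups overlapped, and the difference of 0.21 had p = 0.5 in an exact two-sided permutation test, in which 3 against 3 cannot go below 0.1. Of 22 adipocyte markers tested, 15 were above 0, against 46.9% of all genes tested. At an unadjusted p under 0.05 there were 5 higher and 3 lower (Fasn, Scd1 and Sncg), beside 3.58% and 4.69% of all genes tested. The median of the 22 was 0.34, or 0.55 without treated array A, 0.15 without treated array B and 0.12 without chow array C. With a narrower score, of 14 markers, as a covariate the median was -0.10. Those 14 markers belong to this same list, so that value is no separate check of it. The 5 were 8 without treated array A and 1 without treated array B, treated array C or chow array C, and the 3 were 0 without treated array A. The summed signal ranged from 276972 to 400328 in chow and from 348161 to 520266 treated. Lep, leptin, was below the level tested in both groups, with signals of 220 to 251 and 122 to 285. The score ordered the 6 arrays much as the PPAR target list did, and its part in the list's difference was not tested by this comparison alone. Untreated wild-type littermates of the P465L experiment, set against the same chow arrays, which that comparison therefore shares, had a median of 0.67 for PPAR target genes, 0.75 for brown adipocyte markers and 0.71 for beta oxidation.

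**Figure D2:**
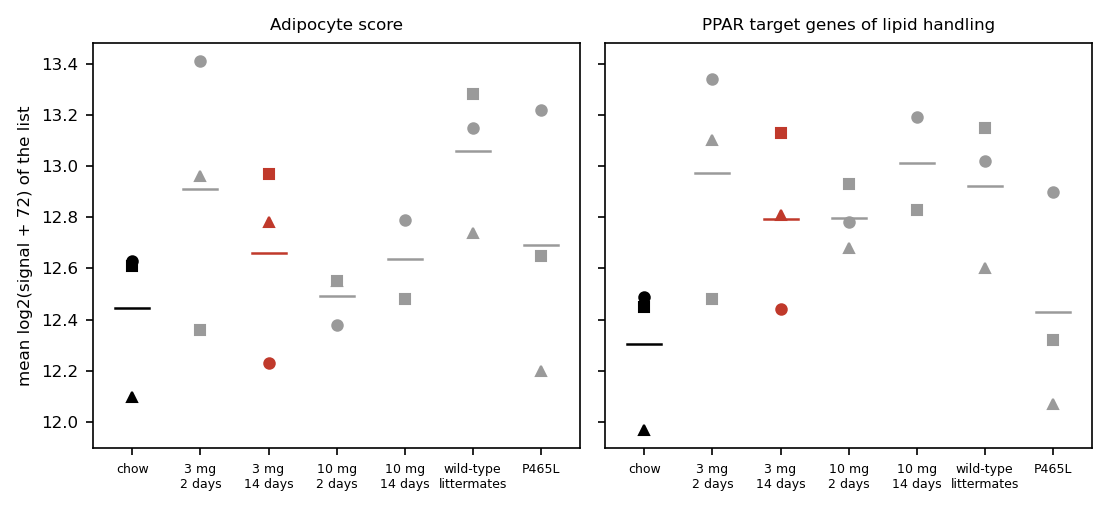
Mean log2 value of the 21 adipocyte markers (left) and of the 34 PPAR target genes (right) on each of the 20 arrays, by group, with lines for group means and red for 3 mg/kg/day for 14 days. In both panels treated array A lies at or below chow arrays A and B, treated array B is the highest of its group, and chow array C is the lowest control.

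A fit with this score as a covariate gave each gene's difference between arrays of equal score. In that fit limma called 27 genes (21 higher, 6 lower) in place of 0. Among those higher were Acaa1b (1.34, adjusted p = 0.000479), Cmbl (1.17), Fabp4 (0.73, adjusted p = 0.00142), Cox8b (0.85), Gpihbp1 (0.89) and Rbp7 (1.40). The lower ones included Fasn (-1.03, adjusted p = 4.69e-05), Cyp2f2 (-1.65), Scd1 (-0.75), the plasma proteins Hp (-0.77) and Orm1 (-0.75), which fat cells also secrete, and Gstt1 (-0.53). Without the covariate Hp was at -0.5 and Orm1 at -0.49, neither called, and their arrays overlapped. Hp read 10446, 10058 and 5475 in chow and 4326, 6725 and 6872 treated, and Orm1 1345, 1375 and 819 against 483, 1022 and 1004. Fasn and Scd1 are members of the score, as is Adipoq (0.48, called higher), and several markers are themselves PPARγ targets, so the covariate is not independent of the drug's action. A narrower score of 14 markers, without genes of lipid synthesis and without Pparg, was added after the data were seen and left 9 calls, 8 of them shared: Fasn, Hp, Cyp2f2, Scd1, Cmbl, Orm1, Fabp4 and Acaa1b. The ninth was Phlda3 (-0.52). The median of the PPAR target list was 0.25 with the first score and 0.13 with the narrower one. That of beta oxidation was 0.25 and 0.11.

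De novo fatty acid synthesis was led by genes that lay below chow. Fasn, fatty acid synthase, read 27361, 30991 and 22492 in chow and 11683, 17564 and 17666 treated. Every treated array was below every control, 1.74-fold on the log2 means (-0.80 ± 0.29 SE, 95% interval -1.40 to -0.20, adjusted p = 0.495), and without treated array B the difference was -0.89. Scd1, the desaturase that makes monounsaturated fatty acids, read 66277, 74796 and 48929 against 34562, 42970 and 47282, and Acly, which makes cytosolic acetyl-CoA from citrate, 13240, 13794 and 15674 against 8698, 10400 and 8857. Both groups of arrays were separate (-0.60 ± 0.22 and -0.61 ± 0.24 SE). Scd1 had -1.23 on its other probe set, but of the 5 other probe sets of Acly only 2 were below 0. Acaca, Acss2, Slc25a1 and Me1 were also lower on every treated array, from -0.31 to -0.43. This made 7 of 26 list members lower on every array, beside 7.49% of all genes tested, and 0 higher, beside 6.11%. At an unadjusted p under 0.05 there were 5 on the lower side, Fasn, Scd1, Scd2, Acly and Me1, beside 4.69% of all genes tested. That count was 1 without treated array A, 2 without chow array C, and 3 without treated array B, treated array C or chow array B. The transcription factors of the pathway, Srebf1 (-0.13) and Mlxipl (-0.01), overlapped, as did the enzymes that esterify fatty acids to glycerol, such as Gpam (0.28), Agpat2 (0.34) and Dgat2 (0.10). On the higher side there was 1, Pck1. The median of the whole list was -0.02. It was 0.19 without treated array A and 0.07 without chow array B, -0.17 without treated array B and -0.12 without chow array C, and -0.20 and -0.30 with the broad and the narrower score as a covariate. Cholesterol synthesis and uptake was below 0 in 15 of 18 members (median -0.15), with Dhcr7 at -0.57 and Msmo1 at -0.47, both overlapping. Without chow array C its median was -0.05, with 7 of 18 above 0, and without chow array A it was -0.25.

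**Figure D3:**
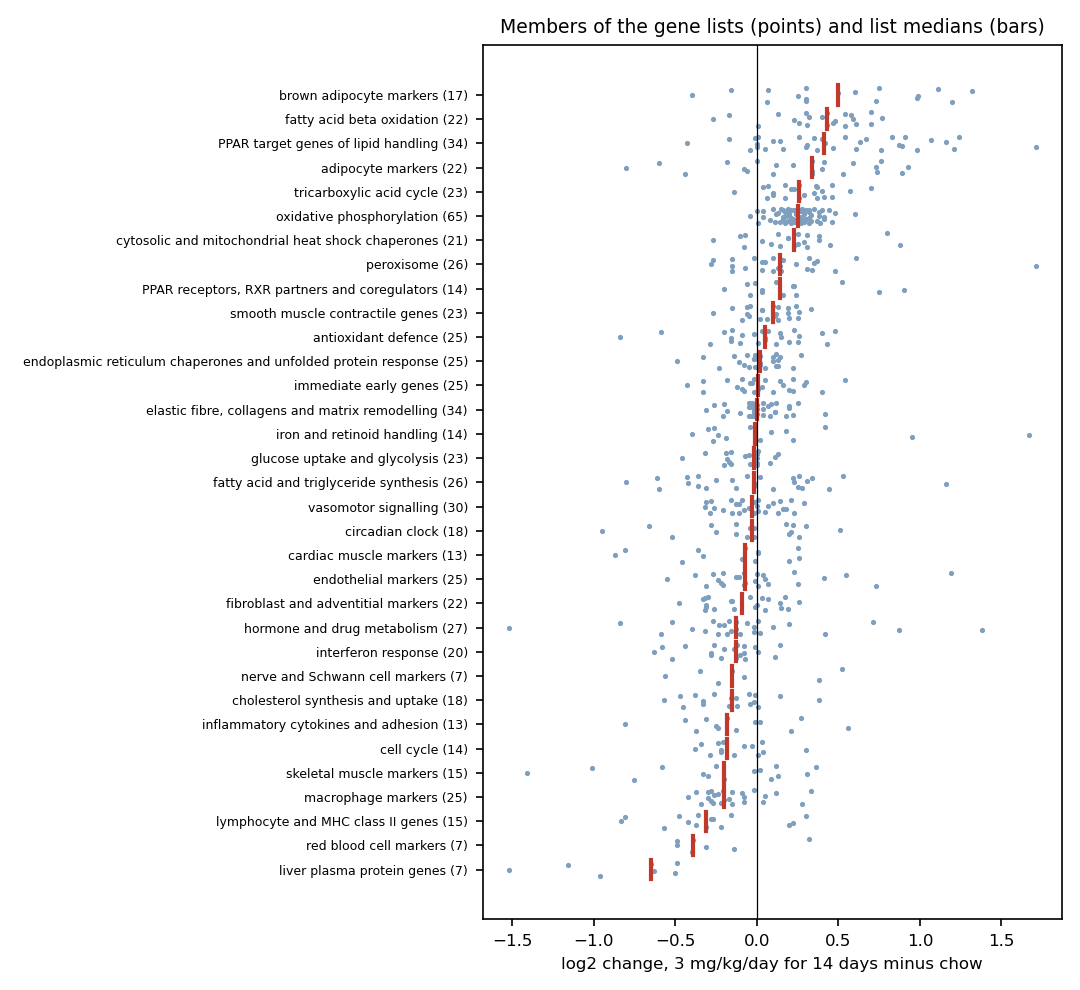
Log2 difference of every tested member (points) of the 33 gene lists, treated minus chow, with the number of members in brackets and red bars for the list medians. Brown adipocyte markers (0.50), beta oxidation (0.43) and PPAR target genes (0.41) have the highest medians, and liver plasma protein genes (-0.65) the lowest.

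The genes of smallest p on the higher side mixed lipid genes with others. Pmf1, a kinetochore protein (chromosome 3, 88394138 to 88410445), read 971, 1183 and 1109 in chow and 2446, 3127 and 1886 treated, and Fbxo36, an F-box protein, 1358, 1637 and 1710 against 2672, 3783 and 2688. Both had an adjusted p of 0.189 and no overlap, but the other probe set of each had the opposite sign (-0.15 and -0.29). Cmbl, a hydrolase that activates ester prodrugs (chromosome 15, 31565342 to 31590119), read 862, 829 and 575 against 1455, 3097 and 1904, a 2.60-fold difference (1.38 ± 0.28 SE, 95% interval 0.80 to 1.96, adjusted p = 0.197). It had the smallest p among the higher genes without a contrary probe set. Rbp7, a retinol-binding protein of fat and its endothelium, read 320, 447 and 187 against 652, 1886 and 1119, a 3.18-fold difference (1.67 ± 0.42 SE, adjusted p = 0.301). Sgk2, a serine kinase related to the mineralocorticoid-induced kinase Sgk1, had a tight control group (283, 298 and 294) and treated signals of 631, 1237 and 702. Slc40a1, the iron exporter ferroportin, read 484, 369 and 286 against 606, 1161 and 684, and 0.69 on its other probe set beside 0.95. Rnd1, whose product loosens actin fibres, had 408, 286 and 612 against 900, 745 and 971, with C the highest treated array. Btnl9, a butyrophilin-like membrane protein, read 245, 356 and 292 against 663, 939 and 828 (1.25 ± 0.29 SE, adjusted p = 0.266), and -0.23 on its other probe set.

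The other higher genes of smallest p were Serf1 (0.64), Map3k12, a stress kinase (0.65), Perm1, a muscle regulator of oxidative metabolism (0.84), St13, a cochaperone of Hsp70 (0.32), and Mrps28, of the mitochondrial ribosome (0.57), beside Fabp4 and Angptl4. All 15 higher and all 15 lower genes had arrays that did not overlap, as their selection required. Of the 30, 15 had a further probe set: in 5 every further probe set had the same sign, and in 6 none had. The 6 were Pmf1, Fbxo36, Btnl9, Map3k12, St13 and Vwc2, and with the mean of a gene's probe sets Map3k12 was at -0.06.

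Cyp2f2, a cytochrome P450 of airway and liver that oxidises small aromatic molecules (chromosome 7, 27119955 to 27133660), was the lower gene of smallest p. Its signal was 1173, 895 and 754 in chow and 250, 377 and 222 after treatment. The highest treated array, at 377, was far below the lowest control, at 754, and chow exceeded treated 2.86-fold (-1.52 ± 0.30 SE, 95% interval -2.14 to -0.90, adjusted p = 0.189). Without treated array B, its highest treated array, the difference was -1.70. A trio of glutathione transferases, which conjugate electrophiles, stood lower on all treated arrays: Gstt1 (12311, 13473 and 13825 against 9036, 8248 and 10451, -0.52), Gstt3 (-0.59) and Gsta3 (746, 666 and 701 against 219, 378 and 556, -0.84). Within the hormone and drug metabolism list, 19 of 27 members were below 0, while Cmbl, the carboxylesterase Ces1d (0.87) and the epoxide hydrolase Ephx2 (0.71) were above it.

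**Figure D4:**
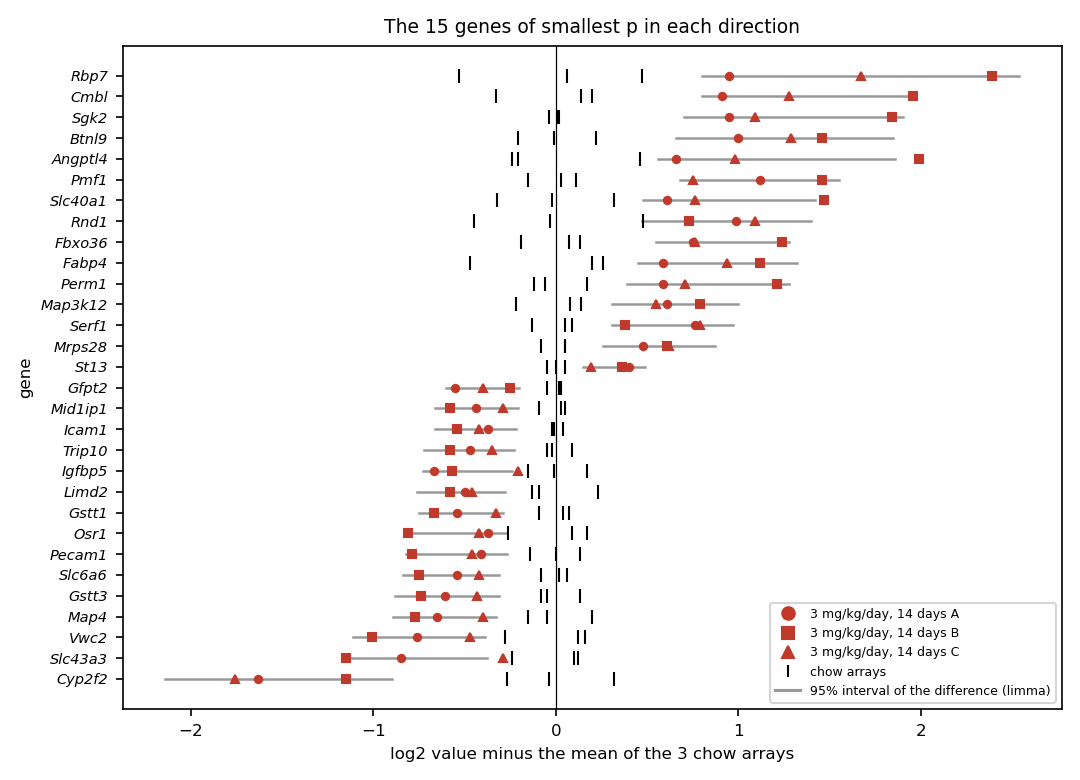
The 15 higher and 15 lower genes of smallest p (vertical axis), each array shown as its log2 value minus the mean of the chow arrays, with red symbols for treated arrays, black ticks for chow arrays and grey lines for the 95% interval of the difference. Treated arrays do not overlap the controls for any of the 30, as the choice required, and Rbp7 (1.67) and Cyp2f2 (-1.52) differ most.

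Endothelial genes did not share a direction. Pecam1, the junctional adhesion molecule that marks endothelium, read 18466, 16832 and 15342 in chow and 12704, 9758 and 12296 treated (-0.55 ± 0.13 SE, adjusted p = 0.268), and Icam1, the leukocyte adhesion receptor, 3851, 3983 and 3837 against 2988, 2655 and 2889 (-0.44 ± 0.11 SE, adjusted p = 0.268). The treated arrays were lower throughout for both. The endothelial factors Sox18 (-0.38) and Sox17 (-0.24) were lower on every treated array too, and Nos3, endothelial nitric oxide synthase, was at -0.31 with overlap (4716, 3466 and 2932 against 3008, 2709 and 3069). Against these, Gpihbp1 (above), Robo4 (410, 374 and 445 against 556, 1073 and 631, 0.73) and the VEGF receptor Kdr (0.55, overlapping) stood higher, as did the cadherin Cdh5 (0.41, overlapping). Of 25 endothelial markers 10 were above 0, against 46.9% of all genes tested, and the median was -0.07. At an unadjusted p under 0.05 there were 3 higher and 4 lower, beside 3.58% and 4.69% of all genes tested. The 4 were 1 without treated array A and 2 without treated array B, and the 3 were 1 without treated array B.

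Genes of the vessel wall had list medians near 0. Smooth muscle contractile genes had a median of 0.10 in 23 members, which was -0.07 under quantile normalization. Acta2, smooth muscle actin, read 117968, 117116 and 100906 against 123992, 164875 and 134808 (0.33 ± 0.12 SE, adjusted p = 0.497), with -0.14 and 0.24 on its other probe sets, and the myosin Myh11 overlapped (0.11). Vasomotor genes had a median of -0.03 in 30 members: Rgs5, a brake on G protein signalling in mural cells, was above the controls by 0.21, and Rhoa, which sensitises contraction to calcium, lay below them at -0.29. Collagens, elastic fibre and matrix genes had a median of 0 in 34 members. Among fibroblast and adventitial markers 14 of 22 were below 0, and those below on every treated array were Igfbp5, an IGF-binding protein (26456, 23348 and 21182 against 14846, 15815 and 20354, -0.48 ± 0.12 SE), Cd34 (-0.33), the Wnt modulator Sfrp4 (-0.32) and Fbln1 (-0.31). The collagen Col3a1 was above all controls at 0.26.

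Lists of immune cell and interferon genes had most members below chow, where 46.9% of all genes tested were above 0. Macrophage markers were below 0 in 20 of 25 (median -0.20), led by Laptm5 (2361, 2896 and 2478 against 1865, 1888 and 1969, -0.42), while the resident macrophage markers Clec10a (0.33) and Folr2 (0.28) were above all controls. Lymphocyte and MHC class II genes were below 0 in 12 of 15 (median -0.31), with H2-Ab1 at -0.57 and Ltb at -0.83, and the interferon response in 17 of 20 (median -0.13), with Ifit3 at 2533, 2064 and 2666 against 1553, 1363 and 1874 (-0.58 ± 0.16 SE, adjusted p = 0.341). At an unadjusted p under 0.05 these lists had 2, 3 and 3 lower members, of 25, 15 and 20, beside 4.69% of all genes tested. They had 1, 0 and 1 without chow array A, 4, 7 and 5 without chow array B, and 6, 1 and 1 without chow array C. They had 1, 1 and 1 without treated array A and 5, 5 and 6 without treated array C. The lymphocyte mean was 11.04, 10.59 and 10.79 in chow arrays A, B and C and 10.26, 10.59 and 10.70 treated, so chow array A was the highest of the 6. Cd3e, which defines T cells, was below the level tested in both groups (59.8 to 128 and 61.6 to 116).

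Cytosolic and mitochondrial heat shock chaperones were above 0 in 17 of 21 members, with a median of 0.23, 7 of them at an unadjusted p under 0.05. Of all genes tested, 46.9% were above 0 and 3.58% had that p on the higher side. Hspa1a, the inducible Hsp70, read 7422, 9014 and 10022 in chow and 24920, 17468 and 9742 treated, so array C was among the controls and array A, low for fat genes, was the highest. Hspa1b (0.80) and Hsph1 (0.45) also had C as the lowest treated array. The 7 were 1 without treated array A, 2 without treated array B, 10 without treated array C and 4 without chow array A. Chaperones of the endoplasmic reticulum had a median of 0.02 in 25 members, and the disulphide isomerases Pdia4 (1439, 1519 and 1305 against 1150, 937 and 903, -0.49), Pdia5 (-0.33) and Pdia3 (-0.23) were below all controls.

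Markers of skeletal muscle, liver, heart and red blood cells were also measured, and those of skeletal muscle varied between single pools. Skeletal muscle genes were high in chow array C: Ckm read 561, 783 and 3296 in chow and 686, 110 and 1547 treated, and the list median of -0.20 became 0.55 without that array. Liver plasma protein genes were below 0 in 7 of 7 (median -0.65, or -1.16 without chow array A and -1.05 without treated array A), with Alb at 208, 877 and 1412 against 298, 240 and 238, and Apoa1 was below the level tested. Of 13 cardiac markers tested, 5 were above 0, with a median of -0.07, and 0 had an unadjusted p under 0.05. Myh6 had the widest difference of them (428, 1005 and 578 against 254, 305 and 394, -0.87), and Nppa was below the level tested. Red blood cell markers had a median of -0.39 in 7 members, or -0.17 without chow array A and -0.19 without treated array C, with Alas2 at -0.49 and Hba-a1 below the level tested.

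The comparison of 14 with 2 days at 3 mg/kg/day asked whether the time on the drug mattered, and the chow arrays cancel in it. No gene was called (0%, smallest adjusted p 0.867), and 631 genes (5.7%) had an unadjusted p under 0.05. The 5 of smallest p were Cdan1, a nuclear protein of red cell formation (0.65), Yars, tyrosyl-tRNA synthetase (-0.54), Gfpt2, of the hexosamine pathway (-0.39), Fasn (-1.09) and Fam162a, a mitochondrial protein (0.47), each with an adjusted p of 0.867. Fasn read 47746, 19739 and 37116 at 2 days, around the chow values, and 11683, 17564 and 17666 at 14 days, so all 14-day arrays lay below all 2-day arrays. Scd1 (-0.65 ± 0.22 SE, unadjusted p = 0.00718) and Cyp2f2 (-0.94 ± 0.30 SE, unadjusted p = 0.00496) were also lower at 14 than at 2 days, both with an adjusted p of 0.867. The PPAR target genes of uptake and oxidation had these differences between days: 0.08 for Fabp4, 0.18 for Acaa1b, -0.33 for Cd36, -0.30 for Angptl4 and -0.34 for Pdk4, with a list median of -0.23. The groups also differed in fat marker signal: the adipocyte score was 13.41, 12.36 and 12.96 at 2 days against 12.23, 12.97 and 12.78 at 14 days, and its part was not tested. With the score as a covariate, broad or narrow, Fasn was called in this comparison. Without 2-day array A or C, 1 gene was called, Rsl1d1 or Snx30 respectively.

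**Figure D5:**
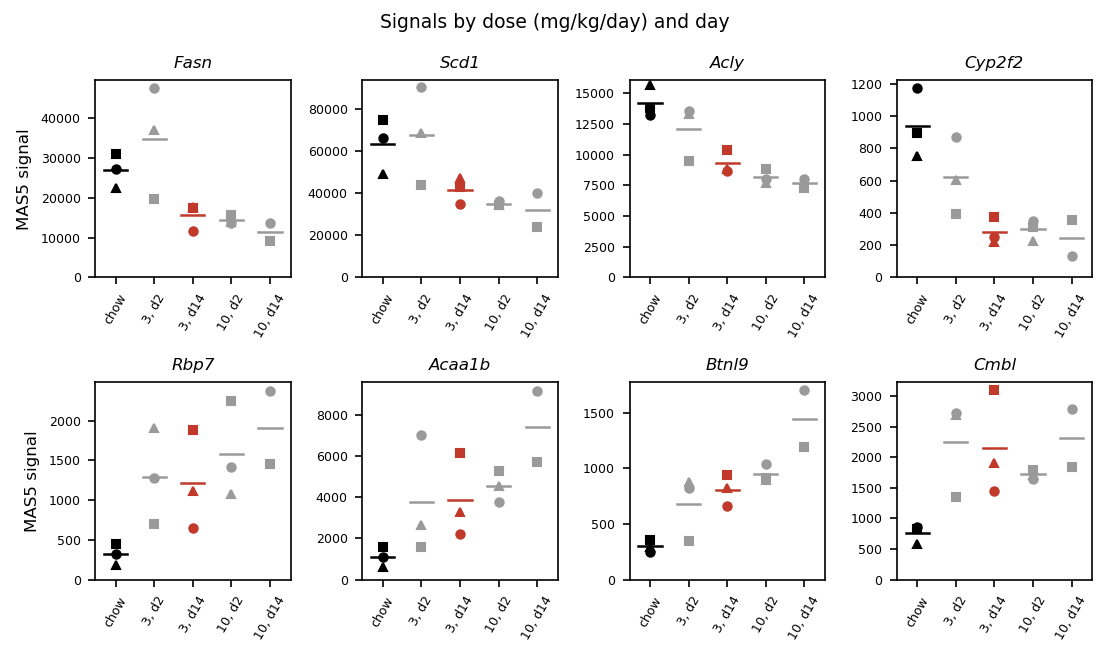
Signals of 8 genes on a linear scale (vertical axes from 0) in chow and in the 4 rosiglitazone groups, labelled by dose in mg/kg/day and day, with lines for group means and red for 3 mg/kg/day for 14 days. Fasn lies at 11683 to 17666 at that dose and time against 19739 to 47746 at 2 days, while Rbp7, Acaa1b and Cmbl overlap between the 2 days.

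The comparison of 10 with 3 mg/kg/day at 14 days rested on 2 arrays at the higher dose. It called 0 genes (0%, smallest adjusted p 0.772), and 562 (5.07%) had an unadjusted p under 0.05, near 5% of the genes tested. The 5 of smallest p were the nuclear receptor Nr4a3 (0.98), Med4 of the Mediator complex (0.57), Tank, an adaptor of NF-κB signalling (1.13), Blnk, a B cell adaptor (-1.02), and Riok2, a ribosome assembly kinase (0.72), each with an adjusted p of 0.772. Without array B of the higher dose, which left 1 array there assumed to vary like the other groups, 9 genes were called, among them Nr4a3, Tank and Blnk and the cardiac genes Actc1 and Myh6. The PPAR target list had a median difference between doses of 0.18, with 1 of 34 members higher at an unadjusted p under 0.05. Single genes with wider differences were Acaa1b (1.01 ± 0.51), Btnl9 (0.78 ± 0.32) and Rbp7 (0.70 ± 0.47, SE). Their adjusted p-values by limma were 0.995, 0.932 and 0.996. Against the same chow arrays these genes had 2.72, 2.03 and 2.37 at 10 mg/kg/day for 14 days, where limma called all 3, beside 1.71, 1.25 and 1.67 at 3 mg/kg/day. The heat shock chaperones were 0.30 higher at the higher dose in the median, with 7 of 21 members at an unadjusted p under 0.05.

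The P465L comparison had its own wild-type controls and shared no arrays with the present one. Differences were P465L minus wild-type littermates, and no gene named in this paragraph was called there. Acaa1b had -1.90 (adjusted p = 0.341) beside 1.71 with the drug, Btnl9 -1.08 beside 1.25, Cd36 -0.70 beside 0.83, Fabp4 -0.65 beside 0.89 and Ucp1 -1.0 beside 1.32. Cyp2f2 had 1.5 (adjusted p = 0.159) beside -1.52, with signals of 807, 1058 and 855 in wild-type littermates and 3587, 2951 and 1820 in P465L mice. These signs were opposite in the 2 experiments. For Fasn they were the same, -0.57 beside -0.80, and for Slc40a1 (0.04 beside 0.95) and Angptl4 (-0.20 beside 1.21) the mutant arrays gave values near 0. The list medians were -0.51 for PPAR target genes, -0.55 for brown adipocyte markers and -0.53 for beta oxidation. Of the cell type markers, the median was -0.28 for adipocyte markers, -1.24 for skeletal muscle markers and -1.77 for liver plasma protein genes. The adipocyte score was 13.15, 13.28 and 12.74 in wild-type littermates and 13.22, 12.65 and 12.20 in P465L mice, and the part of these markers in the values above was not tested.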

How the data were processed

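Signal intensities of 45101 probe sets per array were made by the authors with MAS5 (version not given in the sources used here), per the submitters' processing notes, and the deposited values have a 2% trimmed mean of 1500 on every array. Probe sets were named through GEO's platform annotation (34945 with 1 symbol, 932 with several, 9160 with none besides 64 controls), and the brightest single-symbol probe set stood for each of 18193 genes. Intensities were taken as log2(signal + 72), 72 being the 20th percentile of all values, and the 11076 genes whose mean over all arrays reached the 50th percentile of all probe sets (signal 354) were tested. One mean per group was fitted over all 20 arrays with limma 3.58.1 in R 4.3.3 (eBayes with trend, 13 residual degrees of freedom) with Benjamini-Hochberg adjustment over all genes, and every adjusted p in the text without another name is from it. The 3124 probe sets without a single symbol, tested apart, gave 0 calls and 209 at an unadjusted p under 0.05.

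Genes and gene lists were chosen with earlier results of these data known. Named were the called genes or, as none was called, the 15 of smallest unadjusted p in each direction whose arrays do not overlap, up to 4 members per list, fixed genes of the pathway, and the 5 of smallest p for time and for dose. Plin5, Cidea, Fabp3, Aqp7, Me1, Hp, Orm1 and Gpd1 were added after their values were seen, as were some list members given with a difference only. Array letters were not used to pair the samples. Same-letter deviations from the group means correlated over genes at -0.174, 0.034 and -0.029, which cannot show whether the letters marked a shared batch. Upstream sequences are from RefSeq. Alternatives covered the offset, the filter, normalization, probe set choice, the samples fitted, variance trend, array weights, a replicate block, adipocyte score covariates and each array left out.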

Additional observations from a re-analysis of the deposited data

Results flagged for a closer look

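Yars, tyrosyl-tRNA synthetase, was singled out because its differences from chow had opposite signs after 2 and 14 days of rosiglitazone at 3 mg/kg/day. Its signal was 2178, 2071 and 2177 in chow, 2717, 2639 and 2654 after 2 days, all above chow, and 1938, 1572 and 1973 after 14 days, all below it. The 14-day minus 2-day difference was -0.54 on the log2 scale (SE 0.13, limma unadjusted p = 0.000379, adjusted p = 0.867), with the opposite order in 3 of 3 arrays of each group. Both comparisons with chow share the chow arrays, and the gene was named because it was among the 5 of smallest p for this difference.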

How the results depend on the processing

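No gene was called under the other offsets, filters, normalizations, probe set choice, sample sets, variance settings or the replicate block. The count of genes at an unadjusted p under 0.05 was 1463 without a filter, which tests more genes. It was 964 with the replicate block, which treats equal letters as a shared block. The adipocyte score as a covariate gave 27 calls, and the narrower score, chosen after seeing the data, 9; each gave 1 call for time, Fasn. Leaving out 1 array gave 0 to 5 calls (5 without treated array C) and 461 to 1133 genes at an unadjusted p under 0.05 (461 without treated array B). The same gave 0 to 1 calls for time (1 without 2-day array A, 1 without 2-day array C), 0 to 9 for dose (9 without array B of the higher dose) and an adipocyte score difference of 0.03 to 0.42. Where no cause is given, it was not tested.

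Signs of single differences from chow turned as follows, all for differences far from an adjusted p of 0.05. Quantile normalization put Myh11 at -0.10 and equal medians Nr4a3 at 0.01. The mean of a gene's probe sets gave Map3k12 -0.06, Tpm2 -0.01, Tnnt2 0.05 and Egr3 0.01. The score covariate gave Pparg -0.08, and the narrower one Pparg -0.30, Rxra -0.02, Nr4a3 0.02, Tank 0.03 and Gpd1 -0.07. With 1 array left out, Pparg ranged from -0.09 (without chow array C) to 0.41, Ppard from -0.39 to 0.15 (without treated array B) and Rxra from -0.08 (without treated array B or chow array B) to 0.17. Tnnc2 ranged from -1.82 to 0.52 (without chow array C; 0.38 without treated array B), Myh1 from -1.72 to 0.74 (without chow array C) and Aldh1a2 from -0.80 to 0.36 (without treated array A). Nr4a3 ranged from -0.18 to 0.09 (without treated array C; 0.05 and 0.02 without chow array B and treated array B), Blnk from -0.26 to 0.01 (without treated array A) and Riok2 from -0.34 to 0.01 (without chow array C).

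Genes with a mean signal below 354 over all arrays were not tested, so the fat cell marker Lep, the T cell marker Cd3e and the cardiac marker Nppa have no test here. Pools of 8 aortas give no spread between single mice, and p-values measure only the spread between pools.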

Other observations

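Clock genes had a list median of -0.03 over 18 members, with single members on both sides. Hlf, a PAR-domain transcription factor whose level cycles over the day, read 3176, 4257 and 3370 in chow and 2879, 1643 and 2372 after 14 days at 3 mg/kg/day (-0.66 ± 0.22 SE, adjusted p = 0.473), with every treated array lower. The repressor Cry1 read 1342, 1962 and 1795 against 723, 566 and 1407 (-0.95 ± 0.31 SE), with treated array C among the controls. Nr1d1, a repressor that peaks in the light phase, read 4123, 2728 and 2518 against 4613, 4089 and 4427 (0.51 ± 0.21 SE), with chow array A among the treated arrays. The labels give no hour of tissue collection, and its part in these values was not tested.

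Genes of glucose uptake and glycolysis had a median of -0.02 over 23 members, 17 of them below 0. Tpi1, which interconverts the triose phosphates, read 20060, 20619 and 19707 in chow and 16302, 17097 and 19665 treated, lower on every treated array by a margin that was small for array C (-0.19 ± 0.13 SE, adjusted p = 0.733). Among 14 cell cycle genes, the inhibitor Cdkn1b read 5310, 5492 and 6094 against 4798, 3590 and 4592 (-0.38 ± 0.14 SE, adjusted p = 0.497), with no overlap. Of 7 nerve and Schwann cell markers, Cnp, of myelinating cells, read 5915, 5723 and 5364 against 4401, 2708 and 4634 (-0.56 ± 0.15 SE, adjusted p = 0.333), while S100b, which fat cells also make, read 976, 813 and 782 against 1104, 1531 and 1172 (0.52 ± 0.20 SE, adjusted p = 0.511). Atf3, a stress-induced transcription factor, read 2575, 2424 and 2527 against 4383, 4156 and 2715 (0.54 ± 0.28 SE, adjusted p = 0.624), the smallest difference being that of treated array C, which was also low for Hspa1a.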
